A study of Mus musculus with 12 samples.

Results

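A set of 18 protein-coding genes was nearly without reads in control cardiac fibroblasts and was read in fibroblasts given *Sox17* and *Erg*. They were selected on their measured values, as genes with at most 5 estimated counts in each of the 6 control libraries and at least 50 in both *Sox17*-*Erg* libraries at 4 weeks. Of the 35727 genes of the count table, 21793 were protein-coding, 6207 of these were at or under the control limit, 11402 reached the limit at 4 weeks, and 23 met both. *Sost*, *Dll4*, *Pmch*, *Prdm1* and *D430041D05Rik* met both limits and were set aside by name, together with *Sox17*, *Npffr1* and *Tmem28*, which did not, so that 18 genes remained. Their near absence in control and their level at 4 weeks are therefore what defined them. Every comparison with control or with the 4-week libraries, calls included, is given as description, and nothing is read from it.

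Fibroblasts came from pooled hearts of neonatal mice, isolated with THY1 antibody. For its characterization of these cells, the study first removed PECAM1-positive cells, so as to limit carry-over of heart endothelium. The *Sox17*-*Erg* groups received retroviruses that carry both transcription factors, the control groups are labelled control with PMX library names, and the labels give EGM2 medium, an endothelial growth medium, for both. RNA of the cultures was sequenced on Day 3, on Day 7 and after 4 weeks, from 2 libraries per group and 6 groups. The libraries held 19011635 to 41240449 counts. Each library is an average over a culture in which not every cell need have become an induced endothelial cell (iEC), and more cells that express a gene cannot be told apart from more RNA per cell. Nothing in the sources used here says whether the 2 libraries of a group came from separate isolations, so p-values measure the spread between these libraries.

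Cell fate conversion by transcription factors depends on genes that are closed in the starting cell. SOX proteins bind short AT-rich words through their HMG domain and can bind within packed chromatin, while ERG belongs to the ETS family, whose members bind words around GGAA and are needed for endothelial identity. For a gene that starts from near absence, the control level adds almost nothing to the reading.

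Promoter sequence was examined because both factors are DNA-binding proteins. RefSeq (GRCm38.p6) promoter sequence was matched for 16 of the 18 genes, all but *Igfbpl1* and *Slc9a2*, and the 250 bases upstream of each gene start were searched on both strands for ACAAT, a core of SOX binding words, and for AGGAAG and CGGAAG, cores of ETS binding words. The 4 stretches shown are from the genes that hold more than 1 of these cores, which are in capitals on whichever strand is printed, 5′ to 3′ in the direction of the gene. Each stretch ends where the GENCODE M21 gene begins, which leaves out the last 61 searched bases of *Lipf* with 1 of its cores, 51 of *Slc16a14* with its CGGAAG, and 12 of *Ramp3*. *Lipf* (chr19:33960998-33961186, plus strand) and *S100g* (chrX:162964600-162964849, minus strand) hold the SOX core, and *Ramp3* (chr11:6658283-6658520, plus strand) and *Slc16a14* (chr1:84935135-84935333, minus strand) hold both ETS cores.
Lipf: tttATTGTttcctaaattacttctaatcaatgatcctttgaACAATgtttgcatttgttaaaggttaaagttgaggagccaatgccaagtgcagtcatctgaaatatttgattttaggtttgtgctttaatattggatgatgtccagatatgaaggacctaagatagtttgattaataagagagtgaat
S100g: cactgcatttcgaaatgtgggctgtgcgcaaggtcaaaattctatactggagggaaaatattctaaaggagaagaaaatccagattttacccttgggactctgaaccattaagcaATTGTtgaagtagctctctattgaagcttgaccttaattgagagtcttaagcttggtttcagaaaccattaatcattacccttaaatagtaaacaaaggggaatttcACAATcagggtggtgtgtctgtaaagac
Ramp3: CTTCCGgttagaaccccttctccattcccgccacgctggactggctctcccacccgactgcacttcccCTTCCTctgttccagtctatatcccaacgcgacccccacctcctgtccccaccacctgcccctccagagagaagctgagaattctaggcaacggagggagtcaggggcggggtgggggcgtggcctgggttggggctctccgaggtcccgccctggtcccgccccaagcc
Slc16a14: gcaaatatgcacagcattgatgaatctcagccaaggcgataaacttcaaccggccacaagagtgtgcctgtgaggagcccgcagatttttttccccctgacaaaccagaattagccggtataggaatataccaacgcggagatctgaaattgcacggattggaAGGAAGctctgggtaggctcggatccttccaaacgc

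The SOX core was found in 2 of the 16 promoters, 3 times in *Lipf* and 2 times in *S100g*, and in 24.8% of the 16522 promoters of all genes. The longer word AACAAT, which contains that core, was found in 2 of 16, *Lipf* and *S100g* again, against 8.4% of all promoters, and ACAAAG, another SOX word, in 2 of 16 (*S100g* and *Tmem40*) against 14.9%. AGGAAG was found in 3 of 16 (*Ap3b2*, *Ramp3* and *Slc16a14*) against 28.4% of all promoters, and CGGAAG in 4 of 16 (*Pitpnm3*, *Ramp3*, *Slc16a14* and *Sox21*) against 17.9%. The word TATAAA was found in 0 of 16 and in 11.9% of all. These windows held a median of 11.5 CpG dinucleotides, against 10 over all promoters, with a range from 0 in *Lipf* and *Tmem40* to 39. A word found here is a description of the letters and not a bound site.

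**Figure D1:**
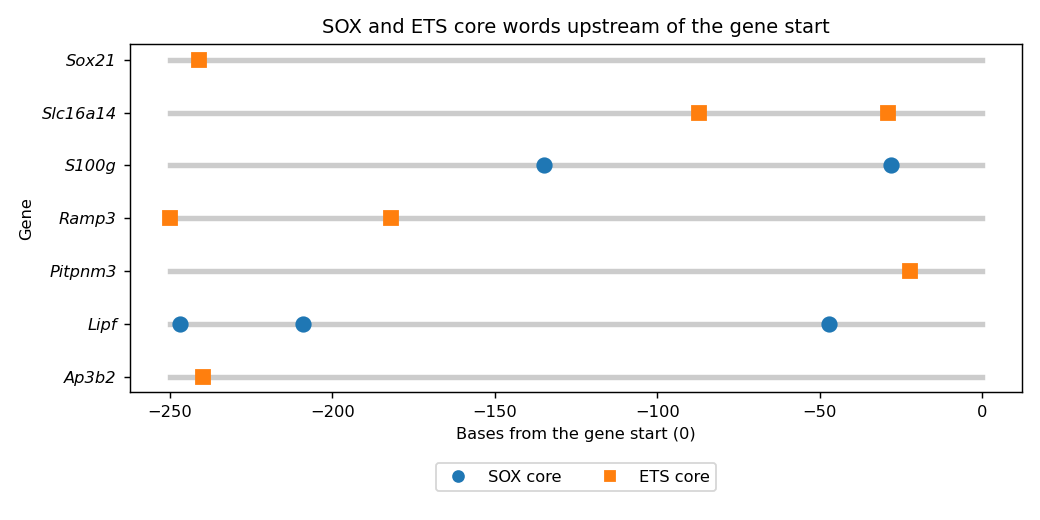
Positions of the SOX core (circles) and ETS cores (squares) in the 250 bases upstream of the gene start, in bases, for the 7 genes that hold any. Grey lines are the searched windows. *Lipf* holds 3 SOX cores and *S100g* 2, while *Ap3b2*, *Pitpnm3*, *Ramp3*, *Slc16a14* and *Sox21* hold ETS cores.

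In the control libraries, 45 of the 108 readings of these genes (18 genes in 6 libraries) were 0. *Lipf* and *Akr1c18* were at 0 in all 6 control libraries, which together held 165729500 counts and allow a level of up to 0.0182 CPM (counts scaled to library size, with TMM factors) for a count of 0, by counting error alone. Over the 6 control libraries the other genes summed to at most 18 counts, and the median over all 18 genes was 7. The summed counts of the 18 genes lay between 20 and 27 in each control library. In *Sox17*-*Erg* libraries the sums were 475 and 289 on Day 3, 2009 and 897 by Day 7, and 5181 and 4360 by 4 weeks, so each later time point was above the earlier one in both libraries.

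**Figure D2:**
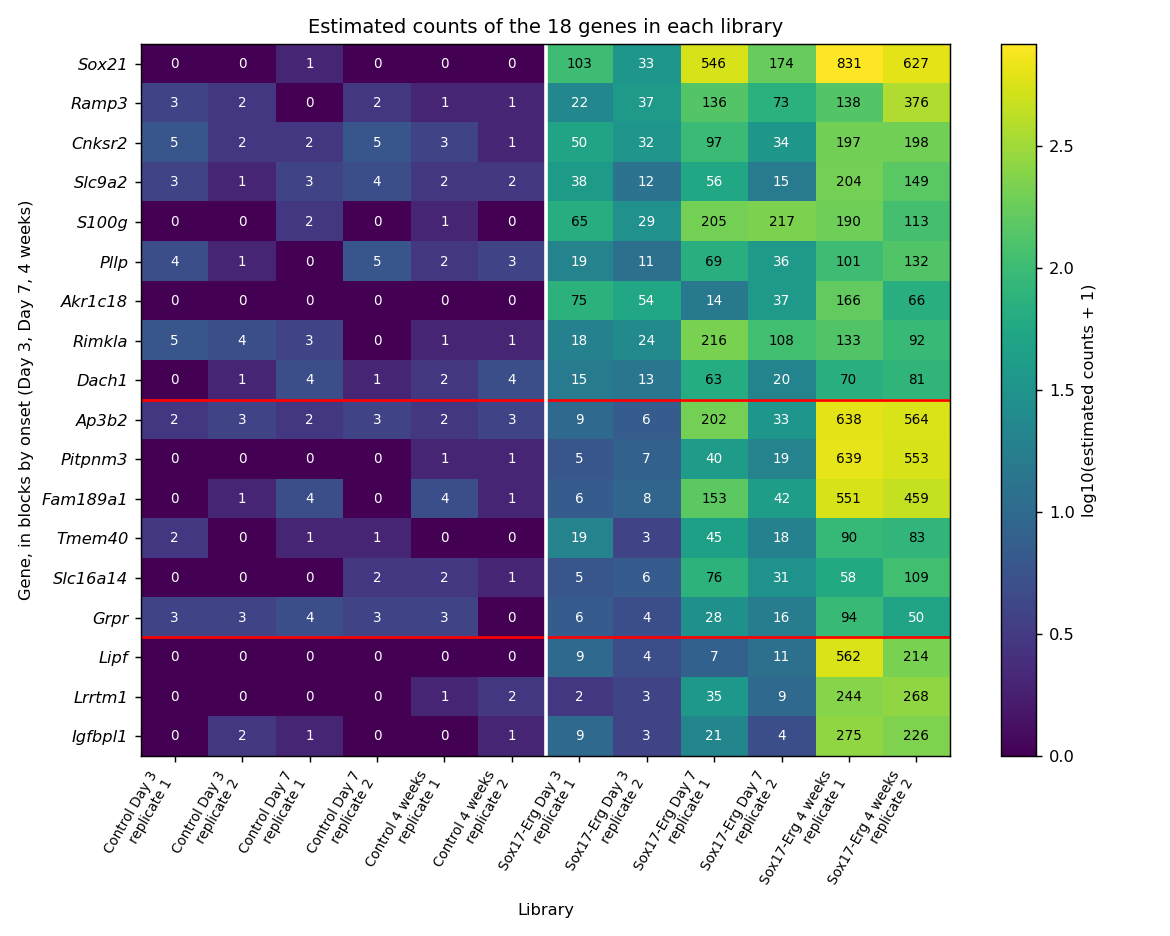
Estimated counts of each of the 18 genes (rows) in each of the 12 libraries (columns), with the count printed in the cell and color on a log10(count + 1) scale. Red lines separate genes first read at Day 3, Day 7 and 4 weeks. The 6 control columns hold at most 5 counts, and the *Sox17*-*Erg* columns at 4 weeks hold 50 to 831.

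The set holds 2 transcription regulators. *Sox21* (chromosome 14, 118233232 to 118237030, GRCm38 in GENCODE M21), an HMG-domain factor of the SOXB2 group best known in neural progenitors, had 103 and 33 counts in the *Sox17*-*Erg* libraries at Day 3, 546 and 174 by Day 7 and 831 and 627 by 4 weeks. It had 1 count in 1 control library at Day 7 and 0 in the other 5. Its mean level was 3.32 ± 2.68 CPM (SD, n = 2, as for all levels here) on Day 3, 11.3 ± 5.24 by Day 7 and 26.3 ± 4.38 by 4 weeks, with no overlap between the libraries of successive time points. By 4 weeks its level was at least 567-fold that of control, taking 3 counts over the 2 control libraries as the floor. *Dach1* (chromosome 14, 97786853 to 98169765), a transcription cofactor with a part in coronary artery growth, was lower per kilobase of exon at 4 weeks, at 0.374 CPM per kb against 6.93 for *Sox21*. It had 15 and 13 counts at Day 3, 63 and 20 by Day 7 and 70 and 81 by 4 weeks, with 0 to 4 in control. Its means were 0.660 ± 0.141, 1.31 ± 0.607 and 2.74 ± 0.369 CPM, again in order without overlap.

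Receptors, secreted factors and signaling proteins gave 4 genes. *Ramp3* (chromosome 11, 6658521 to 6677475) encodes a receptor activity-modifying protein, which pairs with the calcitonin receptor-like receptor to form a receptor for adrenomedullin, a vasodilator peptide. It had 22 and 37 counts at Day 3, 136 and 73 by Day 7 and 138 and 376 by 4 weeks. The libraries at 4 weeks were far apart, at 4.88 and 13.9 CPM, though both were above the 3.75 and 3.21 CPM at Day 7. *Grpr* (chromosome X, 163513904 to 163549677), the G protein-coupled receptor of gastrin-releasing peptide, had 6 and 4 counts at Day 3, where control libraries had 3 and 3. It then had 28 and 16 counts at Day 7 and 94 and 50 at 4 weeks, so only the later readings stood well clear of control.

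*Cnksr2* (chromosome X, 157821436 to 158043294), a scaffold of the Ras pathway found at synapses, had 50 and 32 counts at Day 3, 97 and 34 by Day 7 and 197 and 198 by 4 weeks. In CPM its means at Day 3 and Day 7 were 1.95 ± 0.814 and 2.08 ± 0.835, and the libraries of these time points overlapped, while both libraries at 4 weeks were above them at 6.97 and 7.33. *Igfbpl1* (chromosome 4, 45809468 to 45826923), a secreted protein related to the insulin-like growth factor binding proteins, had 9 and 3 counts at Day 3 and 21 and 4 at Day 7. At 4 weeks it had 275 and 226, and its mean level was 9.05 ± 0.964 CPM after 0.377 ± 0.285 at Day 7.

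Transport and ion binding were represented by 3 genes. *Slc9a2* (chromosome 1, 40680574 to 40769273), a sodium-proton exchanger best known from gut epithelium, had 38 and 12 counts at Day 3, 56 and 15 by Day 7 and 204 and 149 by 4 weeks. *Slc16a14* (chromosome 1, 84905898 to 84935134), of the monocarboxylate transporter family, had 5 and 6 counts at Day 3, 76 and 31 by Day 7 and 58 and 109 by 4 weeks. The CPM of *Slc9a2* overlapped between Day 3 and Day 7, and that of *Slc16a14* between Day 7 and 4 weeks. *S100g* (chromosome X, 162961992 to 162964599) encodes calbindin-D9k, a small cytosolic calcium-binding protein of intestine and uterus. It had 65 and 29 counts at Day 3, 205 and 217 by Day 7 and 190 and 113 by 4 weeks. Its mean was highest at Day 7, at 7.59 ± 2.75 CPM, beside 5.46 ± 1.80 at 4 weeks, with overlapping libraries.

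Proteins of neuronal adhesion, vesicle traffic and lipid transfer gave 3 genes with steep time courses. *Lrrtm1* (chromosome 6, 77242689 to 77257791), a leucine-rich repeat protein of synaptic membranes, had 2 and 3 counts at Day 3, 35 and 9 by Day 7 and 244 and 268 by 4 weeks. *Ap3b2* (chromosome 7, 81460399 to 81493925), the neuronal beta subunit of the AP-3 vesicle coat, had 9 and 6, then 202 and 33, then 638 and 564. *Pitpnm3* (chromosome 11, 72047528 to 72135778), of the membrane-associated phosphatidylinositol transfer protein family, had 5 and 7, then 40 and 19, then 639 and 553. All 3 were in order of time without overlap in CPM, as were other genes of the set, and the rule used the 4-week side. *Pitpnm3* had a mean of 0.277 ± 0.0344 CPM on Day 3, 0.969 ± 0.189 by Day 7 and 21.5 ± 1.51 at 4 weeks, so that its Day 7 level was 4.50% of its level at 4 weeks. For *Ap3b2* the Day 7 libraries were at 5.57 and 1.45 CPM, and the mean was 16.1% of that at 4 weeks.

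Enzymes gave 3 genes with 3 different time courses. *Lipf* (chromosome 19, 33961187 to 33976810), gastric lipase, had 9 and 4 counts at Day 3, 7 and 11 by Day 7 and 562 and 214 by 4 weeks. It stayed near 0.3 CPM at the first time points, with means of 0.314 ± 0.20 and 0.338 ± 0.205, and stood at 19.9 and 7.93 CPM in the libraries at 4 weeks, at least 302-fold above control. *Akr1c18* (chromosome 13, 4132615 to 4150654), a 20-alpha-hydroxysteroid dehydrogenase that inactivates progesterone, had 75 and 54 counts at Day 3, 14 and 37 by Day 7 and 166 and 66 by 4 weeks. It was the gene of the set with the lowest Day 7 level relative to Day 3, and both Day 7 libraries (0.386 and 1.63 CPM) lay under both Day 3 libraries (3.80 and 2.33 CPM). *Rimkla* (chromosome 4, 119465283 to 119492628), which synthesizes N-acetylaspartylglutamate, a peptide transmitter of the nervous system, had 18 and 24 counts at Day 3, 216 and 108 by Day 7 and 133 and 92 by 4 weeks. Like *S100g*, it had its highest mean at Day 7.

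The remaining 3 genes encode other membrane proteins. *Pllp* (chromosome 8, 94674894 to 94696278), plasmolipin, a proteolipid of myelin and epithelial membranes, had 19 and 11 counts at Day 3, 69 and 36 by Day 7 and 101 and 132 by 4 weeks. *Tmem40* (chromosome 6, 115729131 to 115762410), a little studied transmembrane protein, had 19 and 3, then 45 and 18, then 90 and 83. *Fam189a1* (chromosome 7, 64756091 to 65156570), also little studied, had 6 and 8, then 153 and 42, then 551 and 459. The Day 3 libraries of *Tmem40* differed 7.44-fold in CPM, the widest gap of any of these genes at that time, and its Day 3 and Day 7 readings overlapped.

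**Figure D3:**
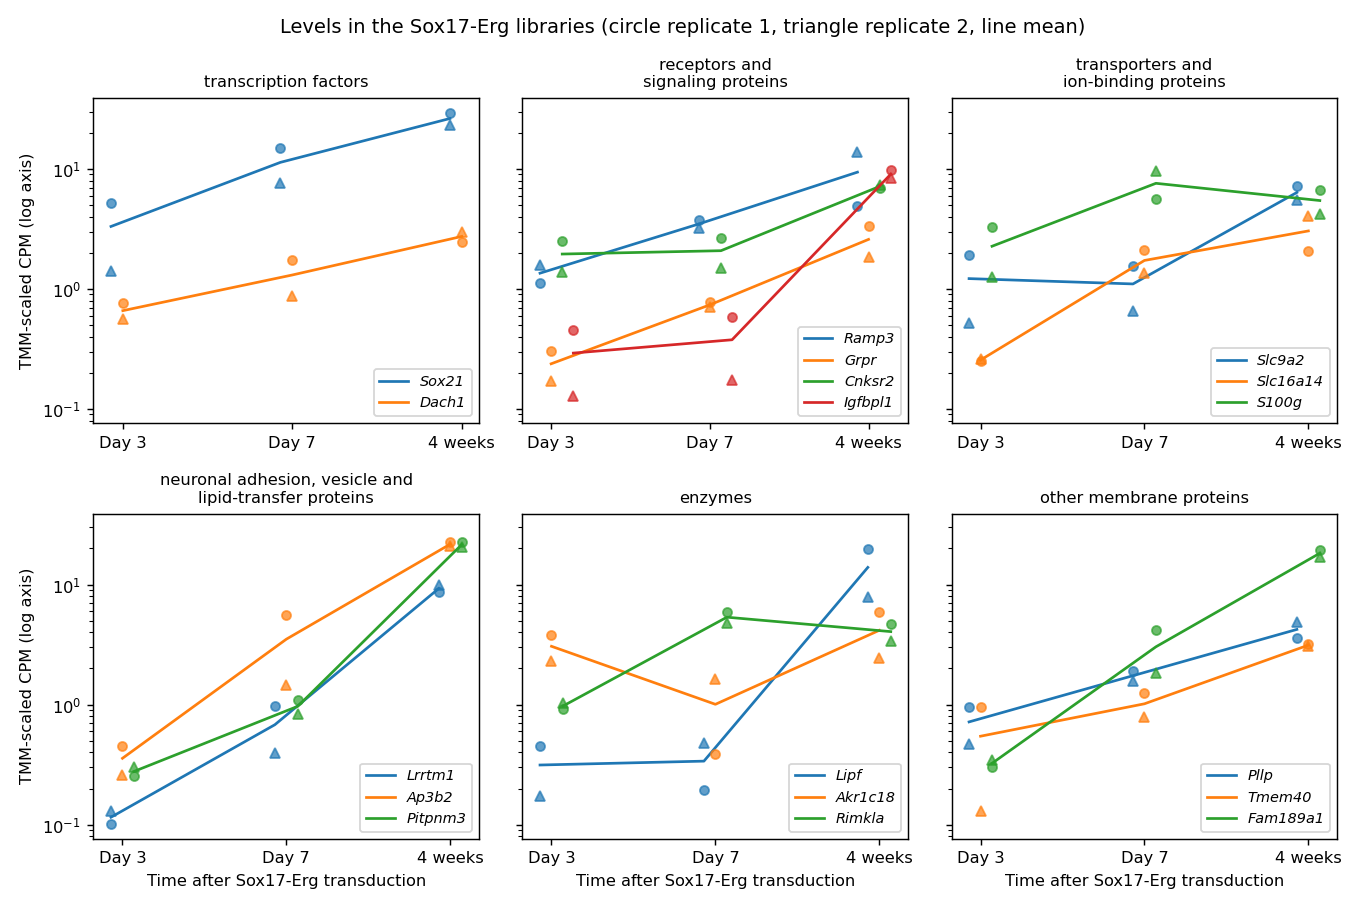
TMM-scaled CPM on a log axis (y) at Day 3, Day 7 and 4 weeks (x) in the *Sox17*-*Erg* libraries, grouped by what the genes encode. Circles are replicate 1, triangles replicate 2 and lines the mean of both. *Pitpnm3*, *Lipf*, *Lrrtm1* and *Igfbpl1* have most of their level at 4 weeks, whereas *S100g* and *Rimkla* have their highest mean at Day 7.

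Onset was taken as the first time point at which both *Sox17*-*Erg* libraries held at least 10 counts. By this measure 9 genes were on at Day 3 (*Sox21*, *Ramp3*, *Cnksr2*, *Slc9a2*, *S100g*, *Pllp*, *Akr1c18*, *Rimkla* and *Dach1*), 6 at Day 7 (*Ap3b2*, *Pitpnm3*, *Fam189a1*, *Tmem40*, *Slc16a14* and *Grpr*) and 3 at 4 weeks (*Lipf*, *Lrrtm1* and *Igfbpl1*). The early genes had a median Day 3 level of 24.0% of their level at 4 weeks, ranging from 12.6% for *Sox21* to 73.6% for *Akr1c18*. Genes with onset at Day 7 had a median of 5.09%, and the 3 genes with onset at 4 weeks had 1.24% to 3.23%. Onset depended on where the line was drawn. At a line of at least 50 counts, 1 gene was on at Day 3, *Akr1c18*, *Sox21* moved to Day 7, and 13 genes, *Dach1* among them, were on only at 4 weeks. At more than 5 counts, *Ap3b2* and *Fam189a1* moved to Day 3, and 1 gene, *Igfbpl1*, was left with onset at 4 weeks. Without replicate 2 of Day 7, 1 gene also had its onset at 4 weeks, in place of 3.

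All 18 genes had both Day 3 *Sox17*-*Erg* libraries above every control library in CPM, as did 23.9% of all tested genes. The rule held the control side of this comparison near 0, and the margin was small in some genes, such as *Lrrtm1*, with 2 and 3 counts beside at most 2 in control. Per kilobase of exon, the highest levels at 4 weeks were those of *S100g* (11.4 CPM per kb), *Lipf* (9.86), *Sox21* (6.93) and *Ramp3* (6.82). At Day 3 the order began with *S100g* (4.73) and *Akr1c18* (2.54), followed by *Ramp3* (0.981) and *Sox21* (0.873). *Dach1* was lowest per kilobase at 4 weeks, at 0.374. Each of the first 4 overlapped its neighbour in that order at 4 weeks, while both libraries of *S100g* were above both of *Sox21*.

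The comparison of *Sox17*-*Erg* at Day 7 with Day 3 sets against each other libraries that did not choose the genes, although the fit took its spread from all 12 libraries. Genes picked for near absence in control and for reads at 4 weeks are likelier to rise on the way than an average gene. The values over all tested genes are therefore given as description only. By edgeR's quasi-likelihood test over 15506 genes, 4 of the 18 rose (adjusted p under 0.05), against 2.04% of all tested genes that were higher. They were *Ap3b2* with a log2 fold change of 3.32 (SE 0.63, adjusted p = 0.033), *Fam189a1* with 3.22 (SE 0.64, adjusted p = 0.035), *Rimkla* with 2.45 (SE 0.47, adjusted p = 0.033) and *Pitpnm3* with 1.79 (SE 0.31, adjusted p = 0.034). None of the 18 was called lower in the same edgeR test, against 1.38% of all tested genes, and 0 were lower at an unadjusted p under 0.05 (11.6% of all tested genes) or by the DESeq2 Wald test (2.42% of the genes it fitted). *Akr1c18* was lower at an unadjusted p under 0.05 without the filter on low counts and without replicate 2 of *Sox17*-*Erg* at Day 7.

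The log2 fold change was above 0 in 16 of the 18, with a median of 1.49, beside a median of -0.00070 over all tested genes. *Akr1c18* had -1.64 (SE 0.78, adjusted p = 0.27) and *Slc9a2* -0.11 (SE 0.60). In 12 of the 18 both Day 7 libraries exceeded both Day 3 libraries in CPM, as in 26.6% of all tested genes. The 4 calls depended on the libraries and the fit. Leaving out single libraries gave 0 to 5 calls, with 0 or 1 when either control library of Day 3 or any *Sox17*-*Erg* library was left out, a fit of the 4 libraries of this comparison alone gave 0, and DESeq2 gave 8, where 3.61% of the genes it fitted were higher. The fold changes of these 4 genes kept their sign under every alternative run, and *Ap3b2* lay between 2.03 and 4.00 over all alternatives. With a term for the replicate number in the fit (replicate block), 5 genes were called, with *Sox21* added.

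**Figure D4:**
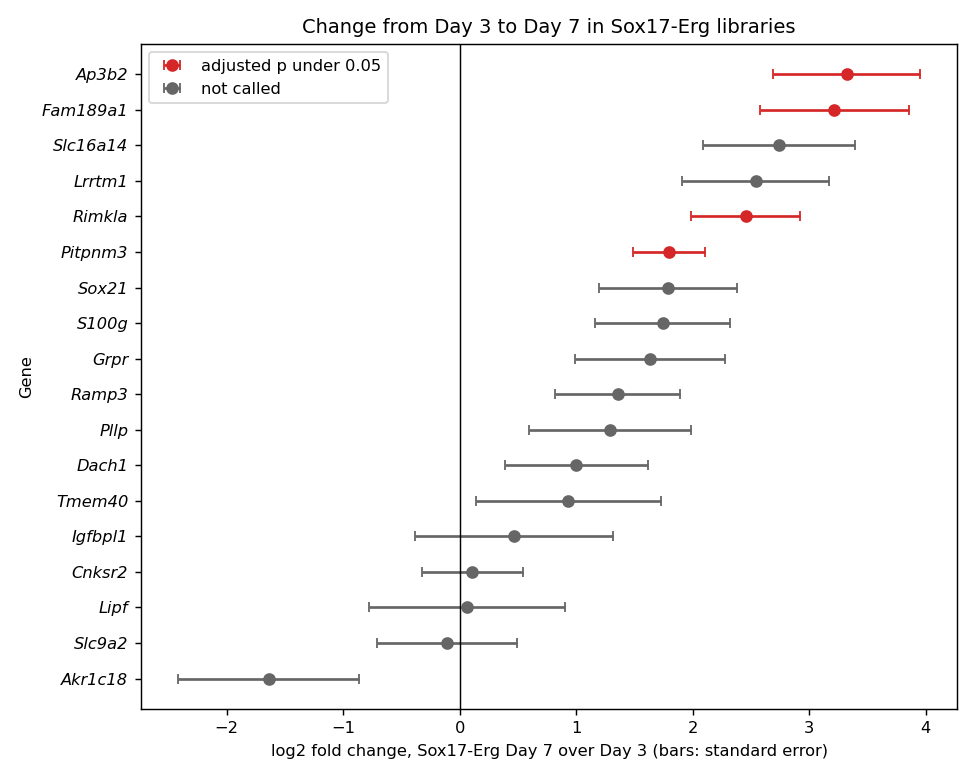
Log2 fold change of each gene in *Sox17*-*Erg* libraries at Day 7 over Day 3 (x), from edgeR's fit of all 12 libraries, with standard errors as bars. Red points passed an adjusted p under 0.05. *Ap3b2*, *Fam189a1*, *Rimkla* and *Pitpnm3* passed, and *Akr1c18* lies lowest at -1.64.

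The change from Day 3 to Day 7 was also set against that in control, as an interaction. The rule used its control side. None of the 18 genes passed an adjusted p under 0.05 in edgeR after the filter on low counts, where 0.0322% of all tested genes were higher. At an unadjusted p under 0.05, 2 were higher, *Rimkla* and *Ap3b2*, beside 4.99% of all tested genes, and DESeq2 called 1, beside 0.666% of the genes it fitted. The gene called by DESeq2, *Rimkla*, had an interaction of 4.02 (SE 0.92, adjusted p = 0.19 in edgeR and 0.031 in DESeq2). Without the filter, edgeR called *Rimkla* too (adjusted p = 0.0072), beside 1.02% of the genes then tested. In genes with almost no control reads this comparison has little to work with.

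The comparisons with control share the libraries that chose the genes, so their counts follow in part from the rule, and all 18 genes had to differ at 4 weeks. At Day 3, 10 of the 18 were higher than control in edgeR's test (7.19% of all tested genes), at Day 7 16 (9.48%) and at 4 weeks 18 (11.9%). The Day 3 count came to 2 without replicate 1 or without replicate 2 of control at Day 3, and to 4 without replicate 1 of *Sox17*-*Erg* at Day 3. At Day 3 *Grpr* had a log2 fold change of 0.91 over control and *Ap3b2* 1.74. At Day 7 *Igfbpl1* had 4.05 and *Lipf* 6.13. The rule also used the *Sox17*-*Erg* libraries at 4 weeks, where 6 of the 18 were higher than at Day 7 (1.15% of all tested genes). From Day 7 to 4 weeks the log2 fold change was 5.42 for *Lipf*, 4.50 for *Igfbpl1*, 4.46 for *Pitpnm3*, 3.72 for *Lrrtm1*, 2.61 for *Ap3b2* and 2.57 for *Fam189a1*. Leaving out any single Day 7 or 4-week *Sox17*-*Erg* library left 1 or 2 calls, and the replicate block gave 7.

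The libraries of a group were not alike. At Day 7, replicate 1 was above replicate 2 in CPM for 15 of the 18 genes, and for 49.5% of all tested genes. The summed level of the 18 genes was 55.4 CPM in replicate 1 and 39.4 in replicate 2, *Sox17* was at 999 and 791 CPM, and the 30 pan-endothelial genes summed to 2260 and 2105 CPM. Replicate 1 also had more *Cdh5* (400 and 248 CPM) and *Pecam1* (57.5 and 33.6 CPM), both endothelial junction genes, and a larger sum of the 20 arterial genes (4069 and 2937 CPM). Smooth muscle and pericyte markers were higher there as well, with sums of 4945 and 2339 CPM, as were neuronal markers with 216 and 142 CPM. Macrophage and leukocyte markers went the other way, with sums of 362 and 602 CPM. So did some pan-endothelial genes. *Vwf* was at 4.96 and 6.33 CPM, and replicate 2 also held more counts of *Eng* (12356 and 14892) and *Cd34* (1071 and 1641). At Day 3, replicate 1 was above replicate 2 for 12 of the 18, with 24.0 and 12.5 CPM in sum, while *Sox17* was at 781 and 432 CPM and *Erg* at 46.6 and 25.9. At 4 weeks the sums were 183 and 161 CPM, with *Sox17* at 1036 and 914 and *Erg* at 65.2 and 27.7. Macrophage and leukocyte markers there summed to 84.4 and 420 CPM. Fibroblast markers summed to 41497 and 59207 CPM at Day 3 and to 40006 and 31818 CPM at 4 weeks. The libraries with more *Sox17* reads thus held more reads of the 18 genes at each time point. The part of the *Sox17* dose or of cell makeup in their level was not tested. The gene counts do not separate the retroviral from the endogenous copies of *Sox17* and *Erg*.

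Genes of the same families and pathways were listed once the 18 names were known, 73 in all. Of these relatives 23.3% had at most 5 counts in every control library, beside 28.5% of all protein-coding genes, and 49 passed the filter on low counts, and at 4 weeks 10 were higher and 15 lower than control, beside 11.9% and 11.0% of all tested genes. Around *Ramp3*, *Calcrl*, its receptor partner, rose from 10.3 ± 0.832 CPM in control to 32.7 ± 1.25 (log2 fold change 1.67, adjusted p = 0.00012 in edgeR's test), and *Ramp1* rose from 2.49 to 5.59 CPM (1.16, adjusted p = 0.0089). *Ramp2*, the partner for adrenomedullin in most endothelium, fell from 36.9 ± 7.67 to 5.03 ± 1.04 CPM (-2.87, adjusted p = 0.0046), and *Adm*, the ligand, fell from 505 to 146 CPM (-1.78, adjusted p = 0.013).

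Among insulin-like growth factor binding proteins, *Igfbp5* rose from 1.35 ± 0.707 to 13.8 ± 2.85 CPM (3.31, adjusted p = 0.0025), while *Igfbp4* and *Igfbp6* fell by 2.03 and 2.52 on the log2 scale. Of the 10 other monocarboxylate transporter genes listed with *Slc16a14*, *Slc16a3*, *Slc16a11* and *Slc16a13* rose, and *Slc16a1*, *Slc16a4*, *Slc16a9* and *Slc16a12* fell. *Slc16a13* had the largest rise of them, from 1.15 to 10.1 CPM (3.13, adjusted p = 3.8e-05). In the phosphatidylinositol transfer family *Pitpnm1* rose (0.50) and *Pitpnm2* fell (-1.32). All of the 6 other AP-3 subunit genes were read at 20.7 CPM or more in both groups and did not pass the test, including *Ap3b1*, the ubiquitous form, at 91.7 and 86.4 CPM. Some relatives had few or no reads. *Sox1*, *Sox2*, *Sox3* and *Sox14* had at most 0.20 CPM in mean in either group at 4 weeks, and *Grp*, the ligand of *Grpr*, was at 0 in all 4 libraries at 4 weeks. *Nmb*, which encodes the related peptide neuromedin B, fell from 2.31 ± 0.737 to 0.274 ± 0.137 CPM (-3.07, adjusted p = 0.020).

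None of the 18 genes was in any of the marker lists of other cell types, nor in those of endothelial and arterial genes. Of 30 pan-endothelial genes 22 reached 50 counts in both *Sox17*-*Erg* libraries at 4 weeks, and of 20 arterial genes 19, but 0 of either list had at most 5 counts in every control library. *Dll4*, an arterial Notch ligand, was set aside by name and was not in the list, and it met both limits with 0 to 5 control counts and 2356 and 2563 at 4 weeks. The listed gene nearest to the control limit was *Gpihbp1* with at most 6 control counts, which was read at 0 in at least 1 of the *Sox17*-*Erg* libraries at 4 weeks. In some pan-endothelial genes the control counts lay mostly in replicate 2 of Day 3 and Day 7. *Erg* had 49 and 34 there and 2 to 4 in the other control libraries, and *Cdh5* had 309 and 201 beside 6 to 25. In others they did not, such as *Kdr*, whose highest control count was 149, in replicate 1 at 4 weeks. Whether heart endothelium left in the cultures gave these reads was not tested. Among arterial genes, *Sema3g* had 4 to 9 control counts and at least 22178 at 4 weeks, and *Gja5*, an arterial connexin, had 6 to 17 and at least 3651. By edgeR's test at 4 weeks, 16 of the 20 arterial genes were higher than control and 2 lower (*Acvrl1* and *Cxcl12*). Of 28 pan-endothelial genes tested, 14 were higher and 2 lower (*Cd34* and *Eng*). Over all tested genes 11.9% were higher and 11.0% lower. Several of the 18 are known from brain, and 4 of 20 neuronal markers reached 50 counts in both libraries at 4 weeks, namely *Map2*, *Syp*, *Stmn2* and *Gad2*. Of the 8 neuronal markers tested by edgeR, these 4 were higher than control at 4 weeks and 1, *Syt1*, was lower. *Syt1* had 22 to 72 counts in control and 5 and 0 in *Sox17*-*Erg* at 4 weeks. *Syp*, a synaptic vesicle protein, had 6 to 21 counts in control and 5 and 3 in *Sox17*-*Erg* at Day 3, 50 and 18 by Day 7 and 308 and 245 by 4 weeks. *Stmn2*, of neuronal microtubules, had 3 to 89 in control, then 25 and 15, 74 and 32, and 188 and 206. *Gad2*, a GABA-synthesizing enzyme, had 0 to 7 in control, then 16 and 11, 75 and 41, and 123 and 91. These 3 thus had their highest counts at 4 weeks, as had most of the 18 genes, but both were picked by a limit on their 4-week counts. *Map2* went the other way, with 3876 and 4714 counts at Day 3, 7445 and 3056 by Day 7 and 2261 and 1735 by 4 weeks. *Rbfox3* and *Neurod1* were at 0 and *Snap25* at 2 in the lower library at 4 weeks. Of 16 endoderm and gut markers 2 reached 50, with *Cdx2*, *Hnf4a* and *Vil1* at 0 in the lower library. Of 12 epithelial markers 2 did. Of 11 smooth muscle and pericyte markers 10 reached 50 counts, and 0 had at most 5 in every control library. By edgeR's test at 4 weeks, 5 of these 11 were higher than control (*Cnn1*, *Cspg4*, *Myh11*, *Notch3* and *Rgs5*) and 3 lower (*Abcc9*, *Des* and *Kcnj8*). *Myh11*, the smooth muscle myosin heavy chain, had 217 to 2230 counts in control and 90 and 196 in *Sox17*-*Erg* at Day 3, 1435 and 744 by Day 7 and 7853 and 6028 by 4 weeks. The sum of that list was 2339 to 5001 CPM in *Sox17*-*Erg* libraries and 707 to 3954 CPM in control libraries. Of the venous and lymphatic markers, which summed to 329 to 519 CPM in *Sox17*-*Erg* and 509 to 606 CPM in control libraries, 12 were tested, with 2 higher at 4 weeks (*Prox1* and *Reln*) and 1 lower (*Nrp2*). *Prox1* had 23 to 42 counts in control, then 94 and 79, 499 and 207, and 1084 and 675. *Reln* had 11 to 72 in control, then 41 and 26, 476 and 143, and 1462 and 711. *Nrp2* had 3471 to 6253 in control, then 1220 and 2294, 1826 and 2270, and 2288 and 1765. Summed neuronal markers were at 91.9 to 216 CPM in *Sox17*-*Erg* libraries and 21.1 to 123 CPM in control libraries. In *Sox17*-*Erg* the sum was 205 and 209 CPM at Day 3 and 106 and 91.9 CPM at 4 weeks. Most of the sum was *Map2*, which had 353 to 2967 counts in control and 1735 to 7445 in *Sox17*-*Erg*. Of 10 mesothelial and epicardial markers 8 were lower than control in edgeR's test at 4 weeks, of 13 cardiomyocyte markers 8, and 0 were higher in either list. Of 12 fibroblast markers 3 were higher (*Fn1*, *Postn* and *Vim*) and 4 lower (*Dcn*, *Lum*, *Pdgfra* and *Tcf21*). The part of other cell types in the readings was not tested.

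The genes lay on 10 chromosomes, 3 of them on the X. Overlapping genes limit some readings, since the strand setting of the counting is not given in the sources used here. *S100g* lies within the range of *Ctps2* on the opposite strand, which was read at 38.1 CPM in control and 29.4 CPM in *Sox17*-*Erg* at 4 weeks, where *S100g* itself had at most 1 control count. *Fam189a1* shares its range with *Nsmce3* on the same strand (10.7 and 14.6 CPM). *Lrrtm1* lies within *Ctnna2* on the opposite strand, which was read at 0.0657 and 0.449 CPM. The transcripts of *Ap3b2* shared 5.21% and those of *Akr1c18* 4.15% of their 31-base words with other genes, in the latter mostly of the same family, and 16 genes shared under 0.5%. Of the neighbours of *Akr1c18* within 100 kb, *Akr1c13* and *Akr1c19* fell and *Akr1c14* did not pass the test.

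Genes at the edges of the rule show how it was drawn. Just inside the control limit were *Cnksr2*, *Pllp* and *Rimkla* with 5 counts in at least 1 control library, and just outside were *Kcnb2*, *Sostdc1* and *Tmem200c* with 6. *Tmem200c* and *Sostdc1* were read far above the limit at 4 weeks, with 1047 and 1297 counts and with 748 and 810. On the other side *Grpr* (50), *Slc16a14* (58) and *Akr1c18* (66) were just inside by their lower library at 4 weeks, and *Shisa8* (48), *Fut9* (47) and *Klhl34* (47) just outside. *Fut9* and *Klhl34* had 0 counts in all 6 control libraries. *Klhl34* lies 1067 bases from *Cnksr2* on the opposite strand and was read at 0.187 CPM in *Sox17*-*Erg* at Day 3 and 1.81 CPM at 4 weeks. Of the protein-coding genes that reached 50 counts in both libraries, leaving out those set aside by name, 29 had 6 to 10 counts in their highest control library.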

How the data were processed

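Bulk RNAseq libraries were prepared with a stranded mRNA kit and sequenced as 2 × 50 paired reads. After trimming for GC content in BBDuk and quantification in Salmon, the authors deposited their estimated counts by gene, in whole numbers and not scaled for depth. The submitters' processing notes name mm10, bcl2fastq 2.20.0, Salmon and DESeq2, and the annotation is not given in the sources used here. All 12 columns of the deposited table were matched to samples by their descriptions. Replicate libraries differed beyond counting error, so intervals and floors cover counting error only.

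Gene names, positions and exon lengths were taken from GENCODE M21 (GRCm38), which held 35493 of the 35727 genes, and promoters from RefSeq. CPM were scaled by TMM, and floors were set at 3 counts. The quasi-likelihood model of edgeR 4.0.16, run in R 4.3.3, had a mean for each of the 6 groups of 12 libraries and 6 residual degrees of freedom, after filterByExpr (minimum count 10, minimum total 15), with Benjamini-Hochberg adjustment over 15506 genes. All 18 genes passed this filter, through their *Sox17*-*Erg* libraries. Alternatives were the Wald test and size factors of DESeq2 1.42.0, no filter, other thresholds, a fit of the 4 libraries of a comparison, a replicate block and leaving out each library. The test was tested on simulated data with known changes, and the outcome of that run is not reported here.

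Genes were named when they were among the 10 highest per kilobase at 4 weeks or at Day 3, were called from Day 3 to Day 7, were in a marker list, were among up to 3 of their functional class, or lay at a threshold of the rule, which names all 18. Their classes and relatives were assigned by hand once the names were known, and some relatives and markers are not reported here. The members and lists were chosen with earlier results of these data known.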

Additional observations from a re-analysis of the deposited data

How the results depend on the processing

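The number of genes that meet the rule moved with its limits. It was 11 at no more than 3 counts in each control library, 47 at no more than 10, and 32 at 25 counts or more at 4 weeks. It was 18 to 26 when a single library was left out. Onset at 4 weeks counted 1 gene at more than 5 counts, 13 at 50 counts or more, and 1 to 3 without single libraries, and onset at Day 3 counted 1 gene at 50 counts or more.

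Calls higher at Day 7 than at Day 3 were 0 at an adjusted p under 0.01, 9 without a filter on low counts, 0 in the fit of 4 libraries and 8 by DESeq2. They were 0 to 5 without single libraries. The calls were 0 or 1 without either control library of Day 3 or any *Sox17*-*Erg* library. Calls over control were 3 at Day 3 and 10 at Day 7 at an adjusted p under 0.01, and 10 at Day 7 in the fit of 4 libraries. They were 2 to 11 at Day 3 without single libraries. Calls at 4 weeks over Day 7 were 1 at an adjusted p under 0.01, 11 without a filter, 1 in the fit of 4 libraries and 1 to 5 without single libraries. The cause of these shifts was not tested, apart from the fewer libraries and the stricter threshold.

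Without single libraries the log2 fold change from Day 3 to Day 7 changed sign for *Cnksr2* (-0.38 to 0.65), *Igfbpl1* (-0.68 to 1.62), *Lipf* (-0.62 to 0.92) and *Slc9a2* (-0.87 to 1.15). With the replicate block 5 genes were higher at Day 7 than at Day 3, with *Sox21* added (log2 fold change 1.89, adjusted p = 0.046), and it moved no count of calls among the 18 genes by over 1.5 times. The labels do not say that a number marks a shared isolation. Deviations from the group mean in libraries with the same number had correlations across genes of 0.171 to 0.301 between control and *Sox17*-*Erg* at the same time point, of 0.219 between *Sox17*-*Erg* at Day 3 and Day 7, and of -0.0541 and -0.0488 between these and *Sox17*-*Erg* at 4 weeks. Low counts limit the early readings, and with 2 libraries per group an SD is imprecise.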
